A study of Mus musculus with 21 samples.

Results

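Unexposed dorsal skin of hairless mice was compared between the start and the end of an 8-week photoaging experiment. The comparison covers 3 control arrays of week 8 and 3 control arrays of week 1, chosen by the titles of the samples, which are 6 of the 21 arrays of the study. The other 15 arrays came from mice irradiated for 1, 2, 4, 6 or 8 weeks, with the dose raised by 1 MED (minimal erythema dose) each week up to 4 MED. All mice were female albino hairless mice (Hos:HR-1), which arrived at 6 weeks of age and were acclimated before the experiment, and each group was stated to hold 3 animals. The control mice received no UV at either time, so the groups compared here differ in age and in the date of sampling. Age, season, stage of the hair cycle and time of day at sampling cannot be told apart in this design.

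The dorsal skin that was sampled holds epidermis, hair follicles, sebaceous glands, dermis, fat and a layer of muscle. A hair follicle passes through growth, regression and rest, and during growth its matrix cells make the hair shaft from hair keratins bound by keratin-associated proteins, inside a sheath with keratins of its own. Skin also runs a circadian clock, in which ARNTL (BMAL1) with CLOCK or NPAS2 drives genes such as Per and Dbp, whose products then restrain or pass on the rhythm. Antibody-secreting cells in the skin release IgA and IgM, whose chains are linked by the J chain.

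RNA was measured on Affymetrix Mouse Genome arrays, on which a gene is read by 1 or more probe sets. All levels below are log2 of the normalized intensity, so that a step of 1 is a 2-fold step, and levels of different genes are not comparable. Correlations between arrays over the probe sets were 0.983 to 0.995 within week 1, 0.995 to 0.996 within week 8 and 0.986 to 0.994 between the weeks. The lowest thus lay within week 1. Array 12 of week 1 stood apart in RNA quality, with a log2 ratio of 3′ to 5′ beta-actin signal of 4.74, against 2.37 to 3.46 on the other 5 control arrays. The same ratio for Gapdh was 6.95 on array 12, 3.66 and 2.79 on arrays 13 and 16, and 5.98, 4.85 and 6.21 in week 8, so that week 8 lay between array 12 and the other week 1 arrays. None of the 24 calls given below was lost with either ratio in the model, and the part of RNA quality in the other differences was not tested. Markers of skin were high on every array (Krt1, a keratin of the epidermis, 12.82 to 14.01). The Y-linked gene Kdm5d stayed at 3.11 to 3.52 on the 6 arrays of these female mice. Fast muscle was present too, with Mylpf, a myosin light chain of skeletal muscle, at 13.25 to 13.89.

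Between the controls, 24 of 40540 probe sets had a limma p of at most 0.05 after adjustment, 12 lower at week 8 (0.0296% of those tested) and 12 higher (0.0296%). Of these, 19 carry 1 gene symbol, 3 belong to several immunoglobulin kappa genes and 2 have no symbol. Hair follicle genes (Fgf5, Krt72, Krt83, Krtap26-1) fell, with Hp, Scrg1, Fzd5, Ly6g6d and Rasl11b. Antibody chains rose most (Jchain and immunoglobulin kappa), followed by Mmp13, Ccl20, Leap2, Fosl1, Aadacl2fm1, Ang4 and the clock gene Arntl. Without a test, 398 probe sets were at least 1.5-fold lower (0.982%) and 341 at least 1.5-fold higher (0.841%). Read at 1 probe set per gene, 9 of 17403 genes were lower (0.0517%) and 8 higher (0.0460%) at the same adjusted p, and the median change over all genes was 0.00. The p-values rest on the spread within groups over all 21 arrays, irradiated ones included, and not on that of the control arrays alone. In whole skin fewer cells of a type and less RNA per cell cannot be told apart.

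Of the 24 calls, 6 (those of Jchain, the 3 kappa probe sets, Scrg1 and Fzd5) remained when any 1 of the 6 control arrays was left out. Each of the other 18 was lost without at least 4 of the 6 arrays taken singly. In a fit to the 2 control groups alone 16 of the 24 calls were lost, Scrg1, Mmp13 and Arntl among them, and 8 were lost after quantile normalization. The calls of Jchain, the 3 kappa probe sets, Fzd5, Fgf5, Hp and Ccl20 remained in all 7 other settings of filter, normalization and model. All 24 probe sets had their 3 week 8 arrays beyond their 3 week 1 arrays, against 6.60% of all probe sets lower and 6.19% higher. The 24 were picked by p-values from these same arrays, so this adds no separate support.

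Genes of the hair shaft had lower means at week 8 almost without exception. Of the 12 hair shaft keratins tested, all 12 had a lower mean at week 8, 10 were lower on every week 8 array than on any week 1 array, and the median change was -1.61 on the log2 scale. Over all genes, 7.90% were lower and 6.60% higher without overlap of the arrays. Krt83, a type II keratin of the hair shaft, was at 9.39, 8.76 and 8.41 in week 1 and at 7.09, 7.46 and 7.61 in week 8. It fell 2.76-fold (log2 change -1.47, SE 0.23, adjusted p = 0.0221) and was the only 1 of the 12 past the threshold. Krt34, a type I hair keratin, was at 10.93, 10.12 and 10.06 in week 1 and 7.45, 8.55 and 8.76 in week 8, a larger difference of -2.12 with an adjusted p of 0.637. The groups of Krt34 did not overlap, but week 8 spread over more than a log2 unit. Krt33a (-2.18), Krt31 (-1.89), Krt86 (-1.83) and Krt35 (-1.78), also shaft keratins, had the same pattern and did not pass. Krt36 (-0.21) and Krt84 (-0.55) were the 2 shaft keratins with overlapping groups.

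**Figure D1:**
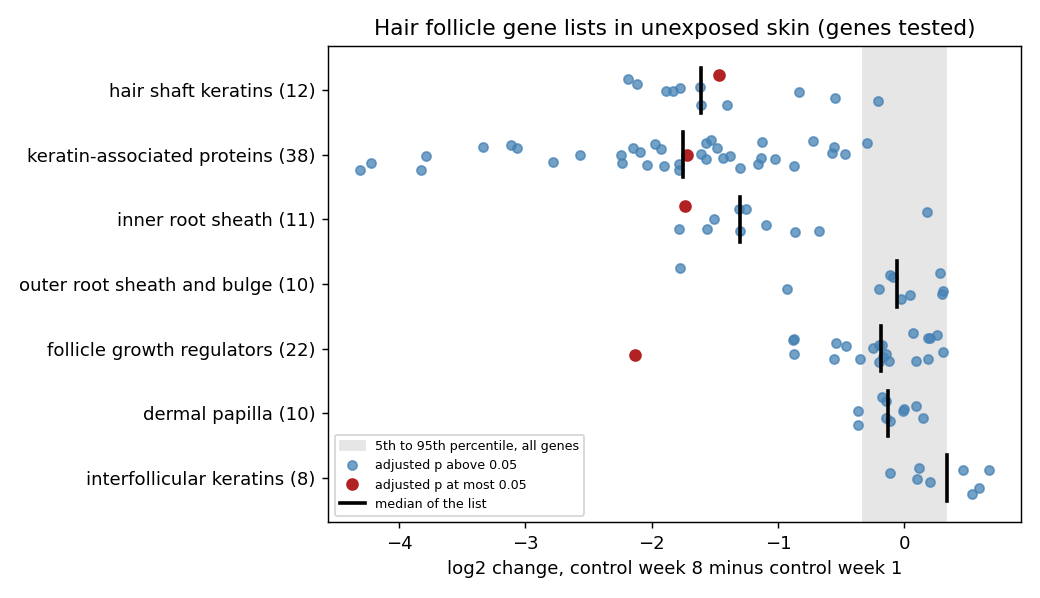
Log2 change of each gene from control week 1 to control week 8 (horizontal axis) for 7 gene lists, with the number of genes tested in parentheses. Points are genes, red where the adjusted p is at most 0.05, black bars are list medians, and the grey band holds the 5th to 95th percentile of all genes (-0.33 to 0.32). Nearly all shaft keratins, keratin-associated proteins and inner root sheath genes lie left of the band, while most genes of the outer root sheath, growth regulator and dermal papilla lists lie inside it.

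The keratin-associated proteins, which fill and cross-link the shaft, held the largest difference of all genes tested. All 38 tested had a lower mean at week 8, 34 by at least 1.5-fold (background 1.44% of genes lower and 1.09% higher), 32 without overlap of the arrays, and the median change was -1.75. Krtap19-2 was at 11.65, 9.29 and 10.01 in week 1 and at 4.89, 7.31 and 5.82 in week 8. This difference of -4.31 (SE 1.12) was the most negative of the 17403 genes, yet its adjusted p was 0.304. Within both groups the arrays of Krtap19-2 differed by more than 2 log2 units, and the groups still did not overlap. Krtap26-1 was at 8.91, 7.64 and 7.76 and then at 6.15, 6.59 and 6.41, and fell 3.29-fold (log2 change -1.72, SE 0.29, adjusted p = 0.0300) as the only member past the threshold. Krtap19-4 came next (-2.78, adjusted p = 0.0569).

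By composition, the 14 high glycine-tyrosine members had a median change of -2.41, the 8 high sulphur members -2.01 and the 14 ultra-high sulphur members -1.23 (-0.80 without array 12). The 20 members on chromosome 16 had a median of -2.24, the 10 on chromosome 11 -1.55 and the 5 on chromosome 7 -0.88. Krtap13 (-0.30) and Krtap19-1 (-0.47), both on chromosome 16, were the least lowered. Members of this family are close in sequence, and their probes may share signal, so these counts are not counts of independent genes.

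The bases before the starts of keratin-associated protein genes are shown because so many of these genes had lower means together. The RefSeq table for GRCm38.p6 holds the 250 bases before the start of 36 of the 38 genes, and 14 of the 36 (38.9%) hold TATATAA, a form of the TATA box, on either strand, against 3.6% of all 27025 genes in that table. Printed are 6 of them, the 5 of most negative difference that hold it and Krtap26-1, each as the 80 bases that end just before the annotated start, 5′ to 3′, with TATATAA in capitals.

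Krtap19-2: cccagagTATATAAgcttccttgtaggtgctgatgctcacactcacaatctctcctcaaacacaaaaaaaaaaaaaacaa
Krtap19-3: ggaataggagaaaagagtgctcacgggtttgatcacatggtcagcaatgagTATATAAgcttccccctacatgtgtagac
Krtap15: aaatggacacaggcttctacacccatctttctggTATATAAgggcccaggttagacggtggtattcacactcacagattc
Krtap14: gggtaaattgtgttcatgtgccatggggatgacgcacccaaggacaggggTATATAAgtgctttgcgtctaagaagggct
Krtap19-4: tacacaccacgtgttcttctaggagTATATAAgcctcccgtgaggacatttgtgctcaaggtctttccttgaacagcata
Krtap26-1: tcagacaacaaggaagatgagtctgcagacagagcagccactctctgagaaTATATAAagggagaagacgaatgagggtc

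These lie at chr16:88874270-88874349 (Krtap19-2, minus strand), chr16:88878039-88878118 (Krtap19-3, minus), chr16:88828929-88829008 (Krtap15, plus), chr16:88826146-88826225 (Krtap14, minus), chr16:88885090-88885169 (Krtap19-4, minus) and chr16:88647797-88647876 (Krtap26-1, minus). The motif begins 29 bases before the annotated start in Krtap19-3 and Krtap26-1, 30 in Krtap14, 46 in Krtap15, 55 in Krtap19-4 and 73 in Krtap19-2. Krtap19-1 (-0.47), whose groups overlapped, and Krtap13 (-0.30) hold the motif as well. They were the least lowered of the 38 members, so the motif was not confined to genes with large differences. Of the 12 hair shaft keratins (median change -1.61), 7 have an annotated start, and only Krt36 among these (14.3%) holds the motif. Members of 1 family need not be independent, and these shares were not tested against each other. A match describes these letters and was not tested as a binding site.

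The inner root sheath, which moulds the growing shaft, had lower means as well. Of its 11 genes 10 had a lower mean at week 8, 9 without overlap, with a median change of -1.30. Krt72, a type II keratin of this sheath, was at 9.43, 9.12 and 8.98 in week 1 and at 7.02, 7.39 and 7.91 in week 8. It fell 3.33-fold (log2 change -1.74, SE 0.30, adjusted p = 0.0300), while Krt26 (-1.78), Krt28 (-1.56) and Padi3 (-1.51), an enzyme that citrullinates sheath proteins, did not pass. Gata3, a transcription factor of the sheath that is also made in the epidermis, had overlapping groups (0.17). Of the 10 outer root sheath and bulge genes only Krt75, a keratin of the companion layer (-1.78, adjusted p = 0.0985), and Lhx2 (-0.93) were lower without overlap. The stem cell markers Krt15 (-0.20), Lgr5 (0.04) and Cd34 (0.30) had overlapping groups.

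The shaft and sheath lists together had 61 genes tested, and 54 of them were among the 251 genes at least 1.5-fold lower. They made up 9 of the 10 most negative differences among genes with no overlap, and 36 of the 50 largest. Array 12, which has the highest 3′ to 5′ ratio, was also the week 1 array with the highest mean of all 3 lists (9.20 for shaft keratins against 8.43 and 8.47 on arrays 13 and 16, 9.96 for keratin-associated proteins against 8.81 and 8.99). Without array 12, 10 of 12 shaft keratins, 30 of 38 keratin-associated proteins and 8 of 11 sheath genes were still at least 1.5-fold lower, and none passed the adjusted p.

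Among 22 regulators of follicle growth, Fgf5 stood out. Fgf5, a secreted signal that ends the growth phase of the hair, was at 6.68, 5.87 and 5.82 in week 1 and at 3.90, 3.84 and 4.23 in week 8. It fell 4.38-fold (log2 change -2.13, SE 0.37, adjusted p = 0.0301). A second probe set of Fgf5, at a mean level of only 3.71, differed by 0.14. Transcription factors of the hair matrix and shaft followed without passing, with Hoxc13 at -0.88 (adjusted p = 0.147), Dlx3 at -0.88, Msx2 at -0.88 and Lef1 at -0.56, each with no overlap. Shh (-0.25), the morphogen that starts follicle growth, its receptor Ptch1 (-0.12) and the vitamin D receptor Vdr (-0.35) had overlapping groups. The list as a whole had 8 genes lower and 2 higher without overlap and a median of -0.19, and the 10 dermal papilla genes a median of -0.13 (-0.04 without array 12) with none past the threshold.

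Other called genes that fell have varied roles. Scrg1, a gene named for its part in cartilage formation, was at 7.0, 7.16 and 6.70 and then at 5.59, 5.80 and 6.02 (log2 change -1.15, SE 0.15, adjusted p = 0.00317). Fzd5, a receptor for Wnt signals, was at 9.35, 9.35 and 9.12 and then at 8.06, 8.23 and 8.36 (-1.06, SE 0.14, adjusted p = 0.00317). The groups of neither gene overlapped at these probe sets. A second probe set of Fzd5, at a mean level of only 4.45, differed by -0.26 (adjusted p = 0.893). Hp, haptoglobin, which binds free haemoglobin, was at 12.38, 12.49 and 12.13 and then at 11.31, 11.02 and 10.94 (-1.24, SE 0.19, adjusted p = 0.0151). Ly6g6d, a small membrane-anchored protein of the Ly6 family, changed by -1.92 (adjusted p = 0.0300) and Rasl11b, a Ras-like GTPase, by -0.63 (adjusted p = 0.0201). Ypel2 passed at 1 probe set (-0.65, adjusted p = 0.0301) and not at its brighter one (-0.38, adjusted p = 1).

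Antibody chains rose most of all. Jchain, the small protein that joins IgA into dimers and IgM into pentamers, was at 6.08, 4.53 and 5.74 in week 1 and at 9.05, 8.56 and 8.31 in week 8. It rose 9.11-fold (log2 change 3.19, SE 0.41, adjusted p = 0.00284), and without any 1 control array the change stayed between 2.73 and 3.50. The 3 probe sets shared by kappa light chain genes (Igkc, Igkj1, Igkv4-53, Igkv6-23 and Igkv8-30) rose by 2.80, 2.81 and 3.02, with adjusted p-values of 0.000223, 0.000832 and 0.000223. The last of these was at 7.04, 6.40 and 6.60 in week 1 and at 9.92, 9.84 and 9.34 in week 8, so that its groups lay more than 2 log2 units apart.

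The heavy chains differed among themselves. Igha, the heavy chain of IgA, was at 7.04, 6.80 and 7.22 and then at 9.54, 8.98 and 8.74, a difference of 2.07 that narrowly missed the threshold (adjusted p = 0.0565). Its other probe sets gave 2.06 (adjusted p = 0.0520) and 1.43 (adjusted p = 0.370). Ighm, the heavy chain of IgM, was at 9.46, 9.52 and 10.20 and then at 10.07, 9.74 and 9.81, with overlapping groups and a difference of 0.15 (SE 0.24). Over all 44 probe sets annotated to immunoglobulin genes or Jchain, 4 were called, all higher, 12 were higher and 2 lower without overlap (6.19% and 6.60% of all probe sets), and the median change was 0.10. Other genes of plasma cells had overlapping groups, with differences of 0.20 for Mzb1, 0.06 for Tnfrsf17 (the receptor BCMA), 0.05 for Derl3, 0.06 for Xbp1 and -0.04 for Prdm1. Tnfsf13b, the B cell survival factor BAFF, was at 5.52, 5.67 and 5.89 and then at 6.35, 6.25 and 6.40, without overlap and with an adjusted p of 0.386. The immunoglobulin probe sets other than Jchain and these plasma cell genes were chosen after their values were seen.

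**Figure D2:**
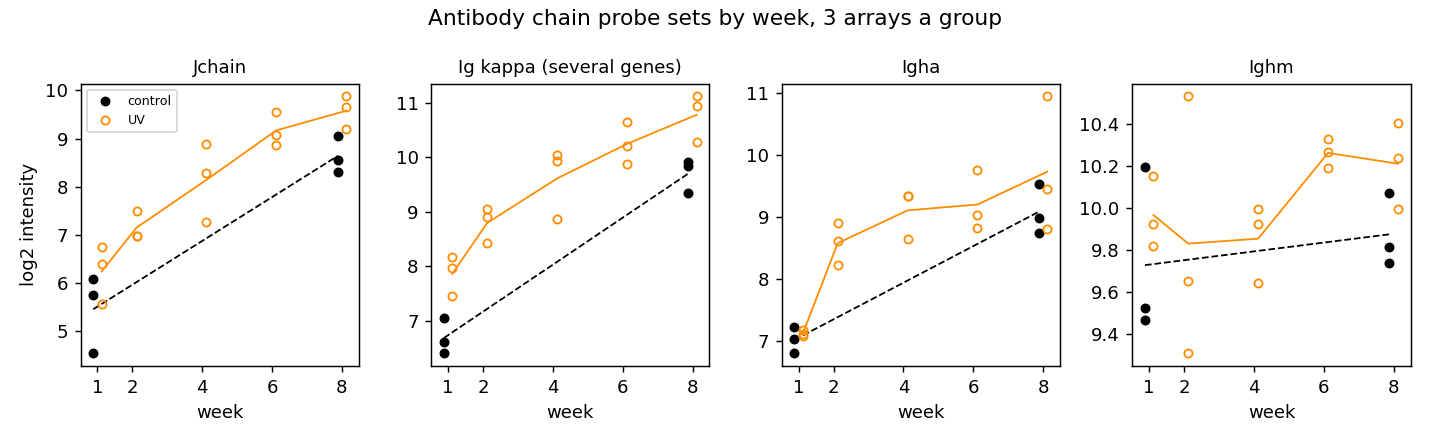
Log2 intensity of 4 probe sets by week (horizontal axis), with filled points for control arrays, open points for UV arrays and lines through the group means. Jchain, the kappa probe set and Igha are higher in the 3 control arrays of week 8 than in the 3 of week 1, Ighm is not, and the means of Jchain in irradiated mice go from 6.24 in week 1 through 7.15, 8.14 and 9.17 to 9.58 in week 8.

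After the antibody chains the largest rise among called genes was that of 1 matrix metalloproteinase. Mmp13, collagenase 3, was at 5.84, 6.39 and 7.26 in week 1 and at 9.36, 8.84 and 8.40 in week 8. It rose 5.18-fold (log2 change 2.37, SE 0.37, adjusted p = 0.0201), a call that was lost without array 12, 13, 51 or 53. Of 15 matrix metalloproteinases tested it was the only call. Mmp12, the elastase of macrophages, was at 8.87, 9.96 and 10.76 and then at 12.00, 11.05 and 11.47 (1.64, adjusted p = 0.518). Mmp3, stromelysin 1 (0.97), and Mmp9, gelatinase B (0.64), were also higher without overlap, whereas Mmp2 (0.04) and Mmp14 (-0.28) overlapped. The median of the 15 was 0.13. Their inhibitor Timp4 was lower without overlap (-1.01, adjusted p = 0.992), while Timp1 (-0.07), Timp2 (-0.02) and Timp3 (0.15) had overlapping groups. Of 20 collagen chains none passed, and Col4a1 (-0.76) and Col4a2 (-0.57), chains of the basement membrane, had the largest differences.

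Mmp13 and Mmp3 lie near each other on chromosome 9, and the bases before their starts are shown because both hold the AP-1 motif TGANTCA (N is any base, and the motif reads the same on both strands). Of the 15 metalloproteinase genes 10 have a start in the RefSeq table, and 5 of the 10 hold the motif in the 250 bases before a start (Mmp3, Mmp7, Mmp10, Mmp12 and Mmp13), against 7.82% of all genes there. Genes of the same family need not be independent, and these shares were not tested against each other. Printed are 80 bases ending before the start on the plus strand of GRCm38.p6, at chr9:7272434-7272513 and chr9:7445742-7445821, with the motif in capitals.

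Mmp13: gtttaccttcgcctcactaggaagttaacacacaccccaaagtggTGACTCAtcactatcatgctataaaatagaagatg
Mmp3: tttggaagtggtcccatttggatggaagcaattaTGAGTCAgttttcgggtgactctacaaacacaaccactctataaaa

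AP-1 is a dimer of Fos and Jun family proteins. The matches were not tested as binding sites, and a link between Fos genes and the metalloproteinases was not tested. Fosl1, the Fos family member FRA1, was among the called genes. It was at 4.56, 4.37 and 5.05 and then at 6.05, 5.95 and 5.73, a rise of 2.38-fold (log2 change 1.25, SE 0.21, adjusted p = 0.0300). Its second probe set, at a mean level of 3.64, differed by -0.09. Fos (-1.02, adjusted p = 0.770) and Fosb (-0.88) were lower without overlap, so differences within the Fos family had both signs. Mmp7, which holds the motif too, had a difference of -0.09.

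Ccl20, the chemokine that attracts cells with the receptor CCR6, was at 6.72, 6.68 and 7.0 in week 1 and at 8.48, 8.83 and 8.74 in week 8. It rose 3.69-fold (log2 change 1.88, SE 0.31, adjusted p = 0.0258) with narrow groups, yet the call was lost without any 1 of the 6 arrays (adjusted p up to 0.157). No other of the 21 cytokines and chemokines tested passed, and Il33 (0.64) and Il1b (0.64) had overlapping groups. Leap2, a small peptide found in liver and epithelia that blocks the ghrelin receptor, was at 5.31, 4.56 and 4.27 and then at 6.37, 5.96 and 6.10 (log2 change 1.43, SE 0.25, adjusted p = 0.0380). Ang4, a ribonuclease of the angiogenin family (1.07, adjusted p = 0.0336), Aadacl2fm1, a relative of arylacetamide deacetylase (1.09, adjusted p = 0.0300), and Acsl4, which activates long-chain fatty acids (0.73, adjusted p = 0.0413 at 1 probe set, 0.70 and 0.0665 at its brightest), rose as well. A second probe set of Ang4, at a mean level of 3.42, differed by 0.10.

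Several further genes had large differences without passing. Gpnmb, a glycoprotein of macrophages and pigment cells, was at 7.76, 8.65 and 9.32 and then at 11.30, 10.35 and 10.53 (2.15, adjusted p = 0.266). Atp6v0d2, a proton pump subunit of macrophages and osteoclasts, differed by 1.73, C1qtnf3 by 1.56, Calcb, a calcitonin gene-related peptide, by 1.53 and Itgax, the integrin CD11c, by 1.04, each without overlap. Of the 14 macrophage genes, in contrast, none was without overlap. H2-Eb1, a chain of MHC class II, was at 9.66 on array 12 and at 6.50 and 6.64 on arrays 13 and 16, against 10.27, 10.14 and 10.21 in week 8. The other class II genes H2-Aa (0.15), H2-Ab1 (0.15) and Cd74 (0.15) had overlapping groups, so the difference of 2.61 in H2-Eb1 (adjusted p = 0.880) was not shared by them.

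**Figure D3:**
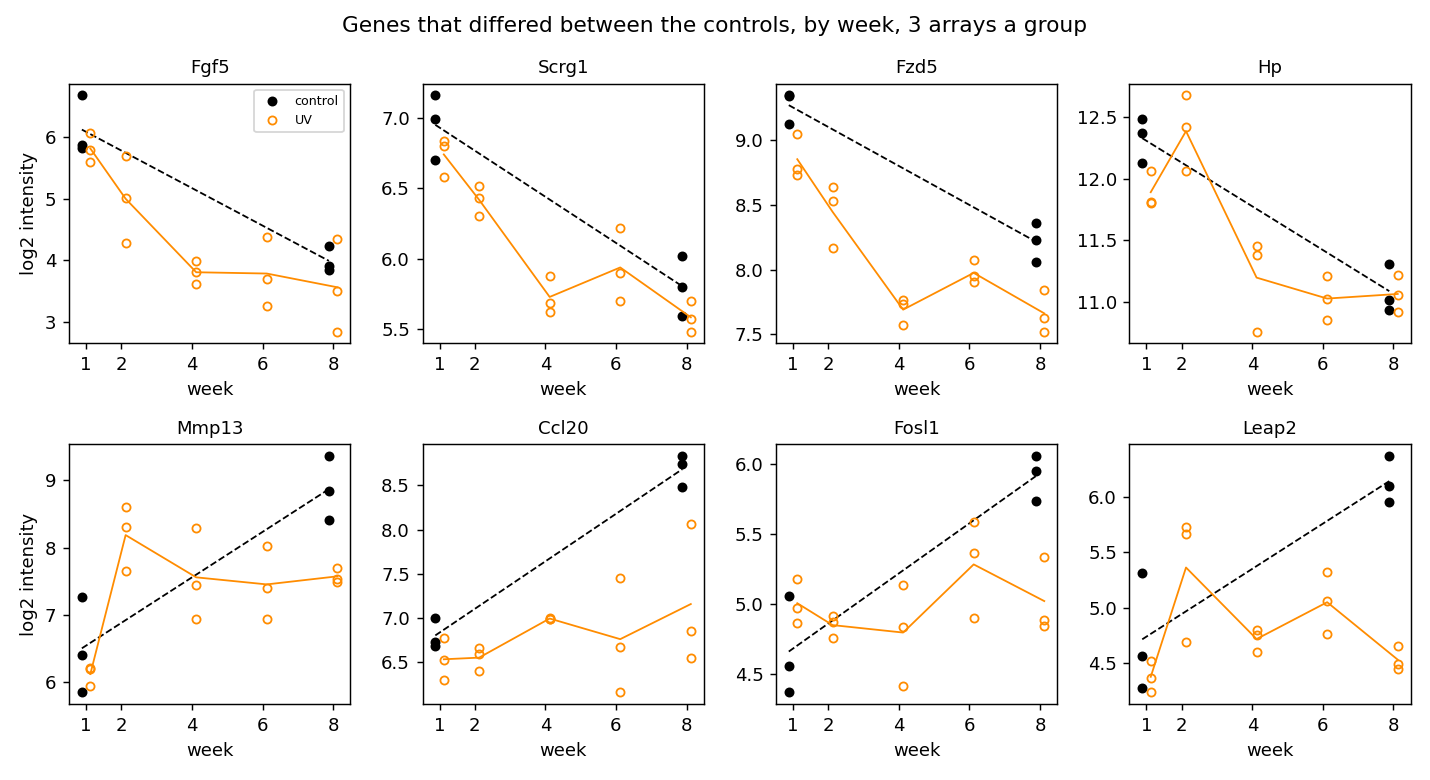
Log2 intensity by week (horizontal axis) of 8 genes called between the controls, with filled points for control arrays, open points for UV arrays and lines through the group means. In the upper row the control arrays of week 8 lie below those of week 1, and in the lower row above them. Ccl20, Fosl1 and Leap2 in irradiated mice stay near their week 1 level or scatter.

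Among clock genes Arntl rose. It was at 7.45, 6.98 and 6.95 in week 1 and at 7.96, 8.06 and 8.15 in week 8, a 1.91-fold rise (log2 change 0.93, SE 0.15, adjusted p = 0.0256), the only call of 20 clock genes. This call was lost without array 13, 16, 51, 53 or 55. A second probe set of Arntl, at a mean level of 4.67, differed by 0.10. Npas2, a partner of ARNTL, was at 5.19, 4.38 and 4.48 and then at 5.53, 5.55 and 5.56 (0.86, adjusted p = 0.662), and Clock, its other partner, differed by 0.39, both without overlap.

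Several genes that the clock drives had lower means. Dbp, a transcription factor with a strong daily rhythm, was at 9.12, 9.73 and 9.70 and then at 8.43, 8.43 and 8.33 (-1.12, SE 0.22, adjusted p = 0.0665), and its second probe set gave -0.94. Per2, a repressor within the clock, was at 6.32, 6.97 and 6.05 and then at 5.97, 5.32 and 5.37 (-0.89, adjusted p = 0.397). Its other probe sets, at mean levels of 4.35 and 4.66, differed by 0.13 and -0.31. Tef (-0.49) and Hlf (-0.45), relatives of Dbp, were lower without overlap as well. Per1 (0.34), Cry1 (0.01), Cry2 (-0.23) and Nr1d1 (0.04) had overlapping groups. In all, 4 of the 20 were lower and 5 higher without overlap, with a median of 0.00 (-0.16 without array 12). In irradiated mice 6 of the 20 passed the adjusted p as lower between weeks 1 and 8 and none as higher (background 0.753% and 0.373% of genes). Among the 6 were Dbp (-1.68, adjusted p = 0.000919), Per2 (-2.08, adjusted p = 0.000689), Tef (-0.86, adjusted p = 0.0296) and Hlf (-0.91, adjusted p = 0.0232). The hour of sampling of each group is not given in the sources used here, and its part was not tested.

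**Figure D4:**
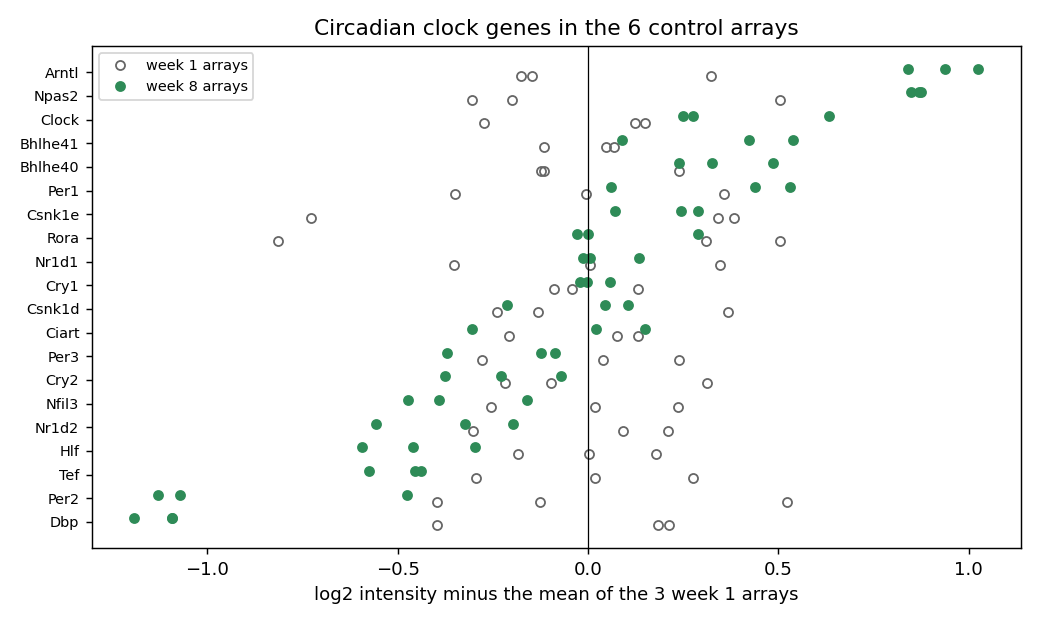
Log2 intensity of 20 circadian clock genes on the 6 control arrays, each relative to the mean of its 3 week 1 arrays (horizontal axis), ordered by the difference between weeks. Open points are week 1 arrays and filled points week 8 arrays. Arntl and Npas2 lie to the right in week 8 and Dbp and Per2 to the left, beyond their week 1 arrays.

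No gene of the lipid lists passed the threshold. Of 20 genes of cholesterol synthesis 18 had a higher mean at week 8, 9 without overlap, with a median of 0.42. Insig1, which restrains this pathway's activation, was at 9.23, 8.88 and 8.97 and then at 9.35, 9.84 and 9.90 (0.67, adjusted p = 0.243), and Mvd (0.79), Fdft1 (0.59) and Sqle (0.54), enzymes of the pathway, were higher without overlap. Array 12 had the lowest mean of this list (8.53 against 9.09 and 8.90), and the median without it was 0.22. Of 14 lipogenesis genes 7 had a higher and 7 a lower mean, and Elovl6, a fatty acid elongase, was higher without overlap (1.27, adjusted p = 0.379). All 13 adipocyte genes had a lower mean at week 8, 3 without overlap, with a median of -0.46. Lep, leptin, was at 8.42, 8.33 and 8.19 and then at 7.02, 7.13 and 7.36 (-1.15, adjusted p = 0.735).

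Among other lists, to be read against 7.90% of all genes lower and 6.60% higher without overlap, 10 of 32 cell cycle genes were lower without overlap (median -0.16, largest in Ccne2, cyclin E2, at -0.67), and 4 of 11 hypoxia-responsive genes were higher without overlap, among them Slc2a1, the glucose transporter GLUT1 (0.85, adjusted p = 0.132). The skeletal muscle list had 3 of 23 genes lower without overlap, with a median of -0.13. The lists of T cell, mast cell, endothelial, elastic fibre, p53 target and antioxidant genes held no gene past the threshold.

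The same 8 weeks could be followed on other arrays in irradiated mice, whose weeks 1 and 8 share no array with the controls, though the model takes 1 estimate of spread from all 21 arrays. Between UV week 1 and UV week 8, 173 probe sets fell (0.427%) and 115 rose (0.284%). The estimates of all 24 probe sets called between the controls had the same sign there, and 16 of the 24 passed in that direction. Fgf5 fell by 2.25 (adjusted p = 0.00492), Fzd5 by 1.19 (adjusted p = 0.000477), Scrg1 by 1.16 (adjusted p = 0.00112) and Hp by 0.83 (adjusted p = 0.0450), while Jchain rose by 3.34 (adjusted p = 0.000571) and Ang4 by 1.53 (adjusted p = 0.000571). Those that did not pass there were Ccl20 (0.63), Leap2 (0.15), Fosl1 (0.02), Mmp13 (1.46), Arntl (0.60), Aadacl2fm1 (0.70), Ypel2 (-0.43) and a probe set without a symbol. Of the 398 probe sets at least 1.5-fold lower between the controls, 336 had a negative change in irradiated mice and 94 passed the adjusted p as lower. Of the 341 at least 1.5-fold higher, 293 had a positive change there and 29 passed as higher. The median change of all 40540 probe sets in irradiated mice was 0.01, so either sign was about equally common among all probe sets.

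**Figure D5:**
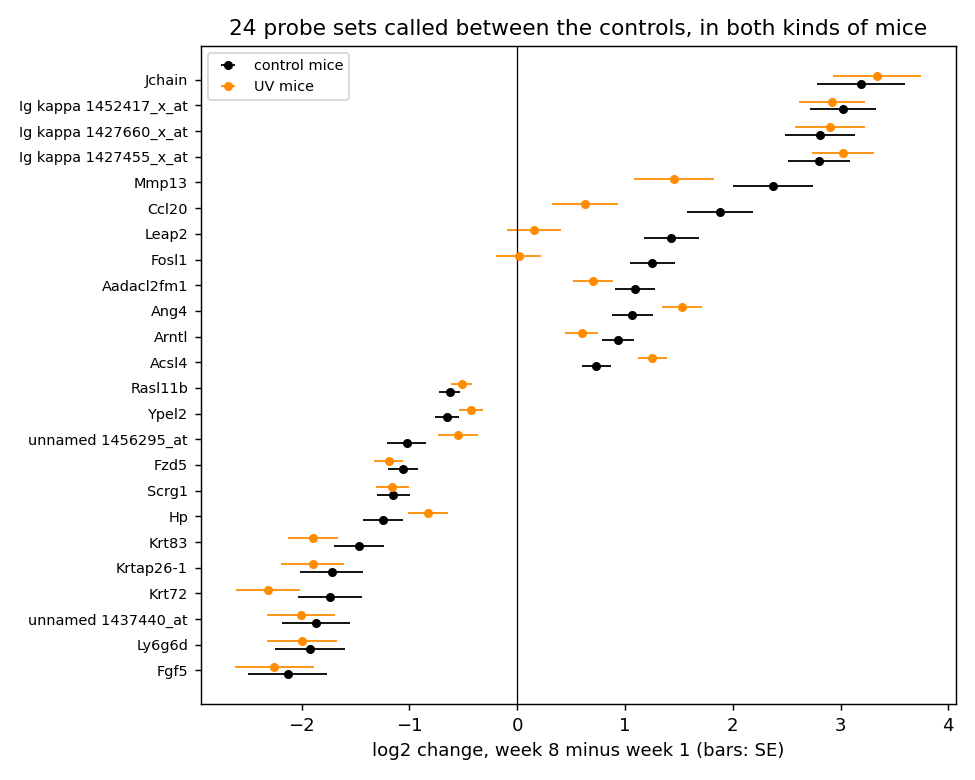
Log2 change from week 1 to week 8 with its SE (horizontal axis) of the 24 probe sets called between the controls, in black for control mice and in orange for UV mice. All 24 pairs lie on the same side of 0, and the pairs of Ccl20, Leap2, Fosl1 and Mmp13 lie farthest apart among those higher at week 8.

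Whether a change differed between unexposed and irradiated mice was tested directly. For Ccl20 the change in controls exceeded that in irradiated mice by 1.26 (SE 0.43, adjusted p = 1), for Leap2 by 1.27 (SE 0.36, adjusted p = 0.876) and for Fosl1 by 1.24 (SE 0.30, adjusted p = 0.610), so these differences did not pass. For Jchain the difference of changes was -0.15 (SE 0.58), for Fgf5 0.12 (SE 0.52) and for Fzd5 0.14 (SE 0.20). Medians of the hair lists were more negative in irradiated mice (-2.73 for shaft keratins, -3.51 for keratin-associated proteins and -3.04 for the inner root sheath). There 9 of 12, 21 of 38 and 7 of 11 genes passed the adjusted p as lower, against 0.753% of all genes. No gene of these lists passed the test of the difference, which called 1 of 40540 probe sets (0.00247%), a probe set of 2 gasdermin C genes.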

How the data were processed

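Total RNA of dorsal skin was hybridized to Affymetrix Mouse Genome arrays. The deposited values are linear intensities per probe set, already normalized, from 4.35 to 35056. The labels name RMA for their processing, whereas the methods describe a Microarray Suite 5 preprocessor in Expression Console; which of them made the intensities is not settled. RMA compresses differences at low levels. Groups came from the sample titles, and no column was left unmapped.

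Intensities were log2 transformed. Probe sets below the 20th percentile on every array and 64 controls of the 45101 were left out. Probe sets with 1 gene symbol in the platform annotation numbered 34958, with several 932 and with none 9211; a gene was read at its single-symbol probe set of highest mean. All 21 arrays entered 1 limma model with a mean for each group (limma 3.58.1, R 4.3.3, lmFit, eBayes, 14 residual and 4.43 prior degrees of freedom), and Benjamini-Hochberg adjustment of the p-values covered 40540 probe sets. On simulated data for the control comparison, with 200 changed probe sets of 40540, 91% of changes of 1.5 and 99% of changes of 3 on the log2 scale were called, with 9 false calls. The changed probe sets were picked at random, and the noise was independent between probe sets and equally wide in every group. These shares therefore do not carry over to genes that vary widely or together, as hair genes did.

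Members and lists were chosen with earlier results of these data known. Genes were named by a rule: all called genes, the 10 largest non-overlapping changes in each direction, the largest 5 (or 8) of each list, genes called for the difference of changes, and sex-linked and housekeeping genes, 271 in all. Others beside them are list members given for contrast. Lists were described by counts and medians, without set tests. Alternatives covered the filter, normalization, model, 3′/5′ ratios, array weights and each array left out. The number of arrays limits the precision.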

Additional observations from a re-analysis of the deposited data

Results flagged for a closer look

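The change with time differed between unexposed and irradiated mice for the probe set annotated to Gsdmc and Gsdmc2, gasdermins of epithelia. Its level was 8.73, 8.59 and 8.43 in control week 1 and 6.86, 7.40 and 7.27 in control week 8, while the means in irradiated mice were 9.29 in week 1 and 10.91 in week 8. The control change of -1.40 had an adjusted p of 0.121, and the difference of changes was -3.02 (SE 0.42, adjusted p = 0.0347 in limma). This call was lost without any 1 of the 6 control arrays, and no probe set had a lower change in controls without UV array 112, 114, 552 or 555 either.

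For a pair of cornified envelope genes every control array of week 8 lay below those of week 1 and every UV array of week 8 above those of UV week 1. They are Rptn, repetin, with a difference of changes of -3.50, and Lce3c, with -0.86. Neither difference passed the adjusted p. Of the 26 cornified envelope genes tested, 3 were lower without overlap at week 8 in controls, and their median change was 0.05. In irradiated mice 7 of the 26 were higher without overlap. Over all 17403 genes, 1375 were lower without overlap in controls and 905 higher without overlap in irradiated mice.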

How the results depend on the processing

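Between the controls, the 12 lower and 12 higher probe sets became 41 and 32 with the beta-actin 3′/5′ ratio in the model, 24 and 21 with that of Gapdh, and 333 and 345 with array weights. Leaving out 1 control array gave 2 to 13 lower and 4 to 7 higher. The counts at 1.5-fold without a test, 398 and 341, ranged from 406 to 755 and from 378 to 604 with 1 array left out, were 251 and 189 at 1 probe set per gene, and the higher count was 649 with the Gapdh ratio. In irradiated mice the 173 lower and 115 higher became 93 and 57 in a fit to the compared groups, 393 and 348 with the beta-actin ratio, 273 and 241 with Gapdh, and 263 and 262 with array weights. Leaving out 1 array gave 77 to 899 lower and 34 to 978 higher, the highest counts without array 551. For the difference of changes, 1 probe set had a lower and 0 a higher change in controls (1686 of 40540 in either direction at an unadjusted p under 0.05). These became 3 and 2 in the fit to the compared groups, 9 and 7 with array weights, 2 and 0 with quantile normalization or the beta-actin ratio and 0 and 0 at 1 probe set per gene, and each ranged from 0 to 15 with 1 array left out. The cause of these shifts was not tested. Median changes without 1 control array were -1.77 to -1.26 for shaft keratins, -1.99 to -1.32 for keratin-associated proteins, -1.45 to -1.12 for the inner root sheath, 0.22 to 0.53 for cholesterol synthesis (0.22 without array 12), -0.51 to -0.29 for adipocyte genes (-0.29 without array 13) and -0.21 to -0.13 for the cell cycle. Over 126 named genes without overlap and 14 settings, 1613 of 1764 fits kept their side of the threshold, 89 calls were lost and 62 gained. Only 17 genes were called in the reported fit, so most of these fits began above the threshold. The share that kept its side therefore says little about how firm the calls were. Without array 53 alone, 14 calls were lost. No change reversed its sign, which in most settings could not occur. Genes without overlap keep their sign when a control array is left out, and several other settings leave the group means as they were. With array weights 30 were gained and none lost.

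No paired analysis was possible because the array numbers are not shared between groups. With 3 arrays a group, a gene that varies between mice, as many hair genes did, can differ several-fold in mean without passing. That variation was taken from all 21 arrays, irradiated ones included. The SD of the mean of the shaft keratins was 0.43 and 0.42 in control weeks 1 and 8 and 0.17 to 0.84 in the UV groups. For the inner root sheath list it was 0.25 and 0.39 in the controls and 0.25 to 1.43 in the UV groups.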
